A study of Mus musculus with 27 samples.

Results

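Mitochondrial ribosomal proteins are the nuclear-encoded proteins of the ribosome inside mitochondria, and were followed here as the genes whose symbol is Mrpl (large subunit) or Mrps (small subunit) followed by a digit. In all 77 such genes were measured, 48 Mrpl and 29 Mrps, among 19938 genes with a single symbol. They were read in TAMH cells, a hepatocyte line from transforming growth factor alpha transgenic mice, on 27 Affymetrix Mouse Gene 1.0 ST arrays of total RNA. Cells at passages 25 to 35 reached confluence in a medium free of serum, with dexamethasone, nicotinamide, insulin, transferrin and selenium, 2 dishes per treatment. Every group carried the same transgene and received the same medium. They were then given acetaminophen (APAP) at 2 mM, AMAP at 2 mM or medium alone (control), and collected after 2, 6 or 24 h. AMAP is a regioisomer of APAP in which the hydroxyl group sits in the meta rather than the para position. Each of the 9 groups of treatment and time held 3 arrays, numbered 30, 31 and 32 in every group. The titles write these as P30, P31 and P32, which lie within the stated passage range, but no label says what the P stands for. Nor does any say that the 3 came from separate cultures, so the p-values measure only the spread between these arrays, which may be technical. TAMH is 1 cell line, so the groups say nothing about differences between cells of different animals.

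The mitochondrial ribosome translates the messenger RNAs of mitochondrial DNA, all of which code for subunits of the respiratory chain and the ATP synthase. Its ribosomal RNAs come from mitochondrial DNA, whereas all its proteins are made in the cytosol and imported, so the genes followed here lie in the nucleus. Hepatocytes are rich in mitochondria, and the reactive metabolite of APAP is known to bind mitochondrial proteins in mouse liver, whereas AMAP is known as the less hepatotoxic isomer in mice.

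The deposited values are on the log2 scale, on which a difference of 1 is a 2-fold change, and array medians ran from 6.92 to 7.07. Calls were made in limma's fit where the p, adjusted over all 19938 genes by Benjamini-Hochberg, was under 0.05, and errors of differences are standard errors (SE) of that fit. Replicate arrays of a group correlated at 0.992 to 0.997. Hepatocyte markers stood high (9 of 10 measured, at a median percentile of 98.3 of all genes), whereas macrophage and leukocyte markers (6) and endothelial markers (5) stood at median percentiles of 27.6 and 24.9, and fibroblast and stellate markers (7) at 38.6. Some genes stood apart from the median of their list. Serpina1d of the hepatocyte list stood at percentile 33.6. Vim and Col1a1 of the fibroblast and stellate list stood at 99.7 and 55.4, and Cd68 of the macrophage and leukocyte list at 62.3. Of 5 biliary markers 4 were measured, at a median percentile of 74.6, and their mean level ranged over the groups from 8.16 to 8.94. In total RNA from dishes, fewer cells of a type and less of a transcript per cell cannot be told apart. The arrays had nearly the same median, so a change in all the RNA of a dish would not be seen.

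All 77 members were well within the measured range. Their means over the 27 arrays ran from 7.92 for Mrps10 to 11.43 for Mrpl18, with a median of 9.45, and the lowest stood at percentile 58 of all genes. Every member thus passed the filter on dim genes that was tried as an alternative, a group mean of at least 6, which kept 15219 genes. A level on this array depends on the probes, so levels were not set against each other between genes.

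Across the 9 groups, the members as a set were lowest in APAP cells at 24 h. The group mean was the lowest of the 9 there for 57 of 77 members, against 7 for AMAP at 24 h and no more than 4 for any other group. The same count was not made over all genes, so no share stands beside it. It also mixes treatment with time, since 63 of 77 members were lower in control cells at 24 h than at 2 h (median -0.09). On each array the deviation of every member from its own mean over the 27 arrays was taken, and the median over the members gives 1 value per array. This median was -0.218, -0.337 and -0.057 on APAP arrays 30, 31 and 32 at 24 h, and 0.018, -0.014 and 0.003 on the controls of that time. The 3 APAP arrays lay below all 3 controls, but array 32 lay much closer to them than the other 2. On the AMAP arrays at 24 h it was -0.043, -0.232 and -0.079, so that array 31 was the lowest with both compounds. At 2 h the values of the 9 arrays ran from -0.049 to 0.182 and at 6 h from -0.112 to 0.134, and the treatment groups overlapped the controls at both times.

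**Figure D1:**
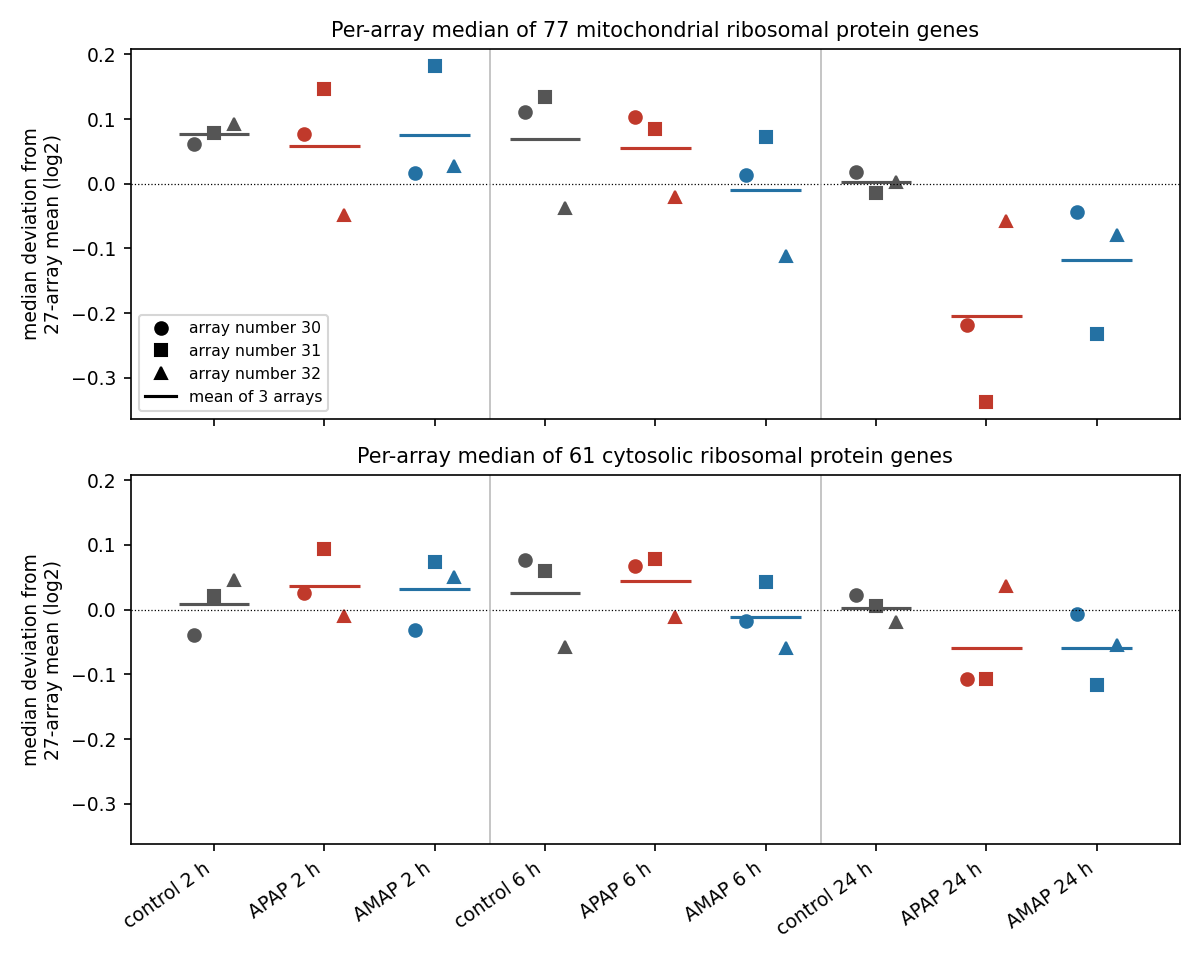
Median deviation of 77 mitochondrial (top) and 61 cytosolic (bottom) ribosomal protein genes from each gene's mean over 27 arrays, in log2 units, for each array; symbols mark array numbers and lines the mean of 3 arrays. Among the mitochondrial genes the APAP arrays at 24 h sit at -0.218, -0.337 and -0.057, below all 3 controls of that time, whereas the cytosolic genes sit at -0.107, -0.107 and 0.036.

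Cytosolic ribosomal proteins belong to the separate ribosome that makes nearly all cell protein. Their list was drawn by symbol and also holds relatives such as Rpl7l1, Rpl10l and Rps27l. The listed genes gave medians of -0.107, -0.107 and 0.036 on the same APAP arrays. On AMAP arrays at 24 h theirs were -0.007, -0.116 and -0.055. The mitochondrial set thus lay lower than the cytosolic set on each of the 6 treated arrays at 24 h. On the 3 controls of that time both lay between -0.019 and 0.022.

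APAP against control at 24 h asked which of these genes differ late in exposure to the hepatotoxic isomer. Among the 77 members, 22 fell and 0 rose, which is 28.57% lower; over all genes tested 5.97% were called lower and 3.36% higher. With each array centred on its median, 1675 of all genes were lower and 518 higher, in place of 1190 and 670. The median difference over the members was -0.20, with quartiles of -0.32 and -0.07, against 0.02 over all genes. Of the members 66 lay below control, or 85.71%, as did 45.41% of all genes. All 3 APAP arrays lay below all 3 controls for 34 members and above them for 0, where 13.7% of all genes lay below and 13.3% above. At an unadjusted p under 0.05, 40 members were lower (51.9%), as were 12.5% of all genes. The calls depended on which arrays entered. The share of all genes called in these smaller fits is not given. The counts that follow thus cannot be set apart from a change over all genes. Leaving out a number takes an array from every group, and the part of the smaller groups in lost calls was not tested. Leaving out number 30 in all groups left 3 called members, and leaving out number 31 left 6. Without APAP array 31 of that time there were 8, without APAP array 32 there were 33, and without control array 31 or control array 32 there were 14.

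The largest difference was that of Mrps27, a small-subunit protein of the pentatricopeptide repeat family that binds RNA. Its log2 values at 24 h were 8.41, 8.42 and 8.33 in controls and 7.92, 7.57 and 7.59 with APAP. All APAP arrays lay well below all controls. The difference was -0.69 ± 0.09 (SE, n = 3 per group; adjusted p = 1.053e-05 in limma's fit), a level 1.61-fold lower. It was called under each of 20 alternatives tried, with an adjusted p between 2.111e-06 and 0.007152. Mrps27 was also the member nearest to a call at 6 h, where the controls read 8.47, 8.56 and 8.53 and APAP 8.22, 8.22 and 8.28 without overlap. The difference then was -0.28 ± 0.09 with an adjusted p of 0.08978, so it was not called.

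Mrps28, another small-subunit protein, read 8.94, 8.92 and 9.06 in controls at 24 h and 8.33, 8.36 and 8.69 with APAP. The groups were apart, with array 32 the nearest to the controls, and the difference was -0.51 ± 0.09 (adjusted p = 0.0007419). Mrpl19, a large-subunit protein, read 8.99, 8.93 and 9.03 in controls and 8.47, 8.43 and 8.56 with APAP. Its APAP arrays agreed closely with each other, and the fall was -0.50 ± 0.08 (adjusted p = 0.0001982). Mrpl3, one of the conserved core proteins of the large subunit, read 9.55, 9.45 and 9.50 in controls and 9.16, 9.02 and 9.06 with APAP, again without overlap. It fell by 0.42 on the log2 scale (SE 0.07, adjusted p = 0.0004039). Mrps28, Mrpl19 and Mrpl3 each stayed called in 19 of 20 alternatives. Mrps28 was not called without number 30 (adjusted p = 0.07477), and the other 2 only where a difference of at least 0.5 was asked for.

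Mrpl47, a large-subunit protein, showed the second largest difference, -0.54 ± 0.14 (adjusted p = 0.01496), but it rested on 2 arrays. Its controls read 8.20, 8.14 and 8.04 and its APAP arrays 7.42, 7.29 and 8.05. Array 32 thus lay among the controls, and Mrpl47 was the 1 called member whose groups overlapped. A second probe set for Mrpl47 differed by 0.03 ± 0.10, and with the mean of both probe sets the difference was -0.25 (adjusted p = 0.1386) and not called.

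Mrpl22, of the family of proteins that line the exit tunnel, read 8.51, 8.64 and 8.60 in controls and 8.09, 8.15 and 8.20 with APAP, a fall of 0.44 (SE 0.12, adjusted p = 0.01739). The APAP arrays of Mrpl22 were tightly grouped and did not overlap the controls. Mrps30 is numbered among the small-subunit proteins but sits in the large subunit in structures of the mammalian ribosome. It read 8.91, 8.94 and 8.97 in controls and 8.50, 8.42 and 8.63 with APAP, a fall of 0.43 (SE 0.09, adjusted p = 0.002899). Mrpl23, which also lies near the tunnel exit, read 10.05, 9.85 and 9.95 in controls and 9.50, 9.47 and 9.62 with APAP. The fall of Mrpl23 was 0.42 (SE 0.09, adjusted p = 0.002283), and its second probe set differed by -0.43.

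**Figure D2:**
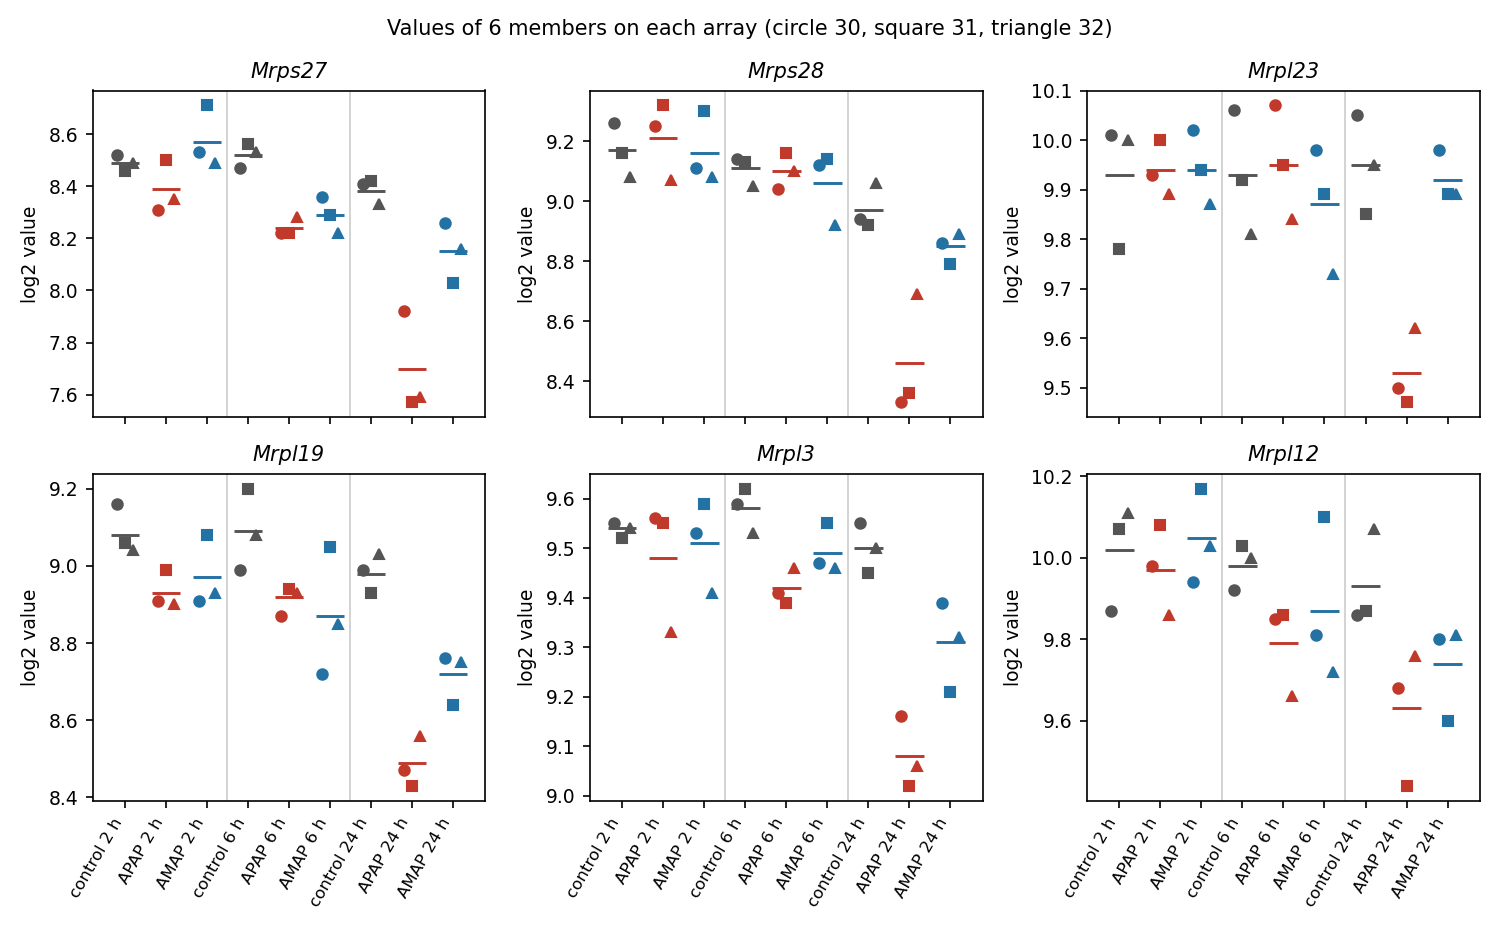
Log2 value on each array for Mrps27, Mrps28, Mrpl23, Mrpl19, Mrpl3 and Mrpl12, by group (n = 3 arrays); circles, squares and triangles are array numbers 30, 31 and 32, lines are group means, and each panel has its own vertical scale that does not start at 0. For the first 5 genes the APAP arrays at 24 h lie below every control of that time, for example 7.57 to 7.92 against 8.33 to 8.42 for Mrps27, and the same holds for Mrpl12 (9.44 to 9.76 against 9.86 to 10.07), which was not called.

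The remaining called members were Mrpl39, Mrpl58, Mrpl50, Mrpl48, Mrpl36, Mrpl15, Mrpl40, Mrpl11, Mrps35, Mrpl35, Mrpl38, Mrpl37, Mrpl16 and Mrps18b. Their differences ran from -0.41 for Mrpl39 to -0.30 for Mrps18b. Mrpl58, also known as ICT1, is a hydrolase related to release factors that became part of the large subunit, and fell by 0.40 (SE 0.11, adjusted p = 0.01519). Mrpl11, whose relatives form the base of the stalk that binds translation factors, fell by 0.36 (SE 0.11, adjusted p = 0.03128). Mrps35, a small-subunit protein with no bacterial relative, read 8.58, 8.55 and 8.55 in controls and 8.19, 8.10 and 8.34 with APAP. Its difference was -0.35 ± 0.09 (adjusted p = 0.01189). The weakest calls were those of Mrpl16, with an adjusted p of 0.04791 and kept in 9 of 20 alternatives, and of Mrpl35, Mrpl11 and Mrpl48, each kept in 10.

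By subunit, 17 of 48 Mrpl genes and 5 of 29 Mrps genes were called lower. Their median differences were -0.22 and -0.15. Placing Mrps30 and Mrps18a with the large subunit, where structures find them, and leaving out Mrps36, gave 18 of 50 and 4 of 26. Mrps36 is now known as a subunit of the oxoglutarate dehydrogenase complex rather than of the ribosome. The difference between the subunits was not tested.

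**Figure D3:**
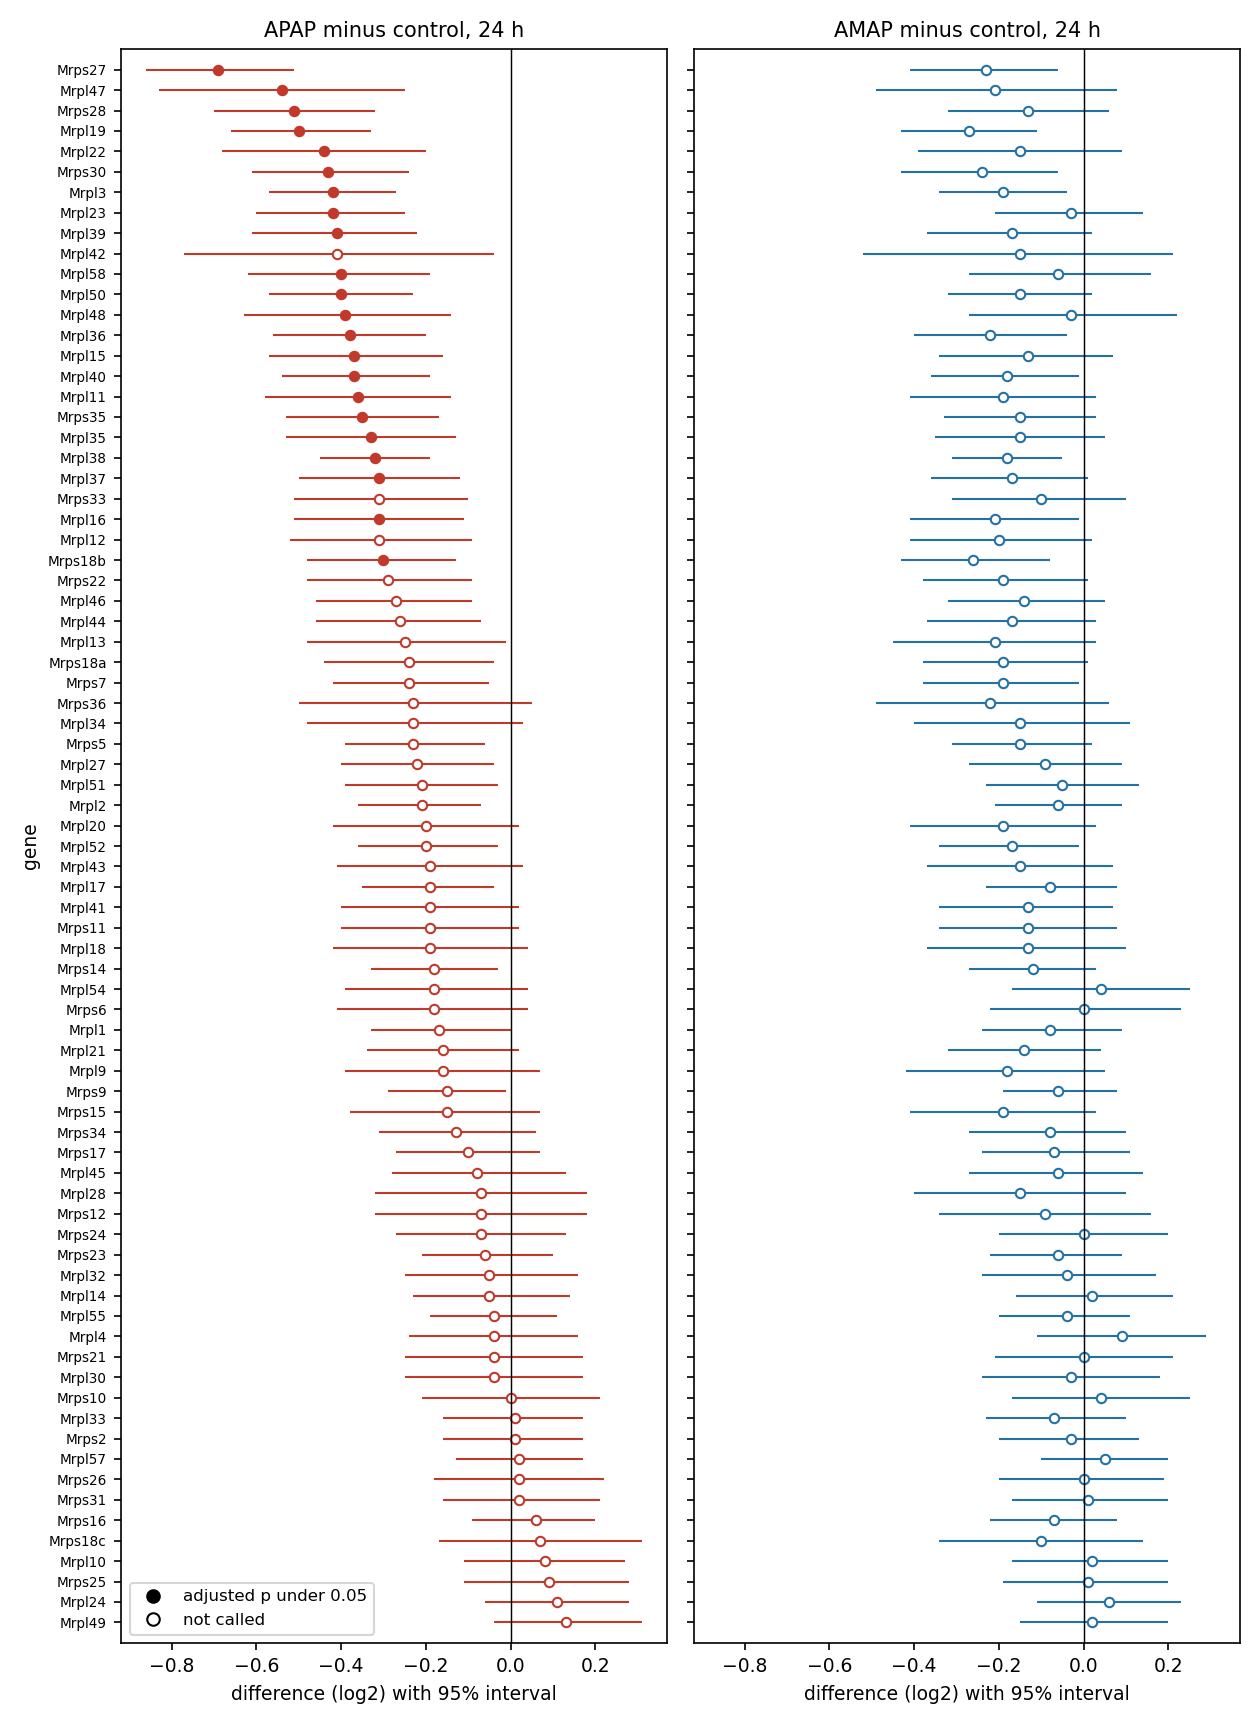
Difference from control at 24 h of each of the 77 members with APAP (left) and AMAP (right), in log2 units, with its 95% interval from limma's fit and filled points for called members. With APAP 22 points are filled, all to the left of 0, from -0.69 to -0.30; with AMAP none is, and the points lie between -0.27 and 0.09.

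Several members chosen for their role did not pass the test. Mrpl12, the stalk protein that is also known to bind the mitochondrial RNA polymerase, read 9.86, 9.87 and 10.07 in controls and 9.68, 9.44 and 9.76 with APAP. The groups of Mrpl12 did not overlap, but the difference of -0.31 ± 0.10 had an adjusted p of 0.06279. Mrpl10, the stalk's anchor on the ribosome, differed by 0.08 (95% interval -0.11 to 0.27). Mrps12, of the decoding centre, read 8.82, 8.72 and 8.83 in controls and 8.67, 8.64 and 8.84 with APAP, a difference of -0.07 (95% interval -0.32 to 0.18) with overlapping groups.

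The 3 paralogs of the S18 family differed among themselves in these values. Mrps18b differed by -0.30 ± 0.08 (adjusted p = 0.02227), Mrps18a by -0.24 ± 0.10 (adjusted p = 0.1367) and Mrps18c by 0.07 ± 0.12 (adjusted p = 0.7977). Only Mrps18b was called, and the differences between the paralogs were not tested. Mrps18c turned to -0.07 without APAP array 32.

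Other small-subunit members came close to the threshold. Mrps22, whose controls read 9.01, 9.09 and 9.04 and APAP arrays 8.65, 8.66 and 8.96, had a difference of -0.29 ± 0.10 (adjusted p = 0.05566). For Mrps5 the difference was -0.23 (adjusted p = 0.07432), and its second probe set differed by -0.31 with an adjusted p of 0.01212 over all probe sets. Mrps7, of the head of the subunit, differed by -0.24 (adjusted p = 0.09722), and Mrps16 by 0.06 (95% interval -0.09 to 0.20). Mrps36 differed by -0.23 ± 0.13 (adjusted p = 0.3384).

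In the large subunit Mrpl44, which has a ribonuclease III fold, differed by -0.26 ± 0.10 (adjusted p = 0.08491) and Mrpl41 by -0.19 (adjusted p = 0.2782). A second probe set for Mrpl41 differed by -0.07 ± 0.08. Mrpl45, which helps tether the ribosome to the inner membrane, and Mrpl4 differed by -0.08 and -0.04, with 95% intervals of -0.28 to 0.13 and -0.24 to 0.16. In all, 8 members that were lower had an adjusted p between 0.05 and 0.10. The 55 members not called had a median difference of -0.16 and ran from -0.41 to 0.13; at the upper end was Mrpl49, with an adjusted p of 0.38.

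Promoters are shown for 5 of the called members as examples. They come from RefSeq on build GRCm38.p6 and run from 250 bases before the start to 50 after it; 68 of 77 members had an entry, and Mrps28 and Mrpl19 did not. The letters searched on both strands were GCGCANGCG, the site of nuclear respiratory factor 1 (NRF1), CCGGAAG, the core of ETS factors such as GABPA, and AAGATGGC, of YY1, none of which contains another. All 3 are factors known for nuclear genes of mitochondrial proteins. Capitals mark these matches, and each line reads 5′ to 3′ on the plus strand, which is the gene's own.
Mrps27, chr13:99344536-99344835: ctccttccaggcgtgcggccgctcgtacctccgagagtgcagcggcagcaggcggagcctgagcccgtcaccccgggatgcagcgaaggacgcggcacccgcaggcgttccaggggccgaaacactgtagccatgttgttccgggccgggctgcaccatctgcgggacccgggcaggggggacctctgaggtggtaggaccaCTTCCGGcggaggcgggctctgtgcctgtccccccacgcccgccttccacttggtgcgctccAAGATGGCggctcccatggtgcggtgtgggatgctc
Mrpl3, chr9:105053018-105053317: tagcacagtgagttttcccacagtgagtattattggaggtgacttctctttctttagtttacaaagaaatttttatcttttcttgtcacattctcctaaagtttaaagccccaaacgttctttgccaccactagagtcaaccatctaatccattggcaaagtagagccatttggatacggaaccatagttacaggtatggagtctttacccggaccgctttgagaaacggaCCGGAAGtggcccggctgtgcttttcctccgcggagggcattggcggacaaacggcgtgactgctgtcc
Mrpl22, chr11:58171414-58171713: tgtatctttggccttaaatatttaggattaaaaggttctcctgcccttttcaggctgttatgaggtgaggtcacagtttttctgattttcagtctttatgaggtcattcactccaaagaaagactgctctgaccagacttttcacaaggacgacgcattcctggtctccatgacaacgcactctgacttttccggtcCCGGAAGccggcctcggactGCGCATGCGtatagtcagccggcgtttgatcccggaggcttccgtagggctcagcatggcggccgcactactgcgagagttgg
Mrpl58, chr11:115403502-115403801: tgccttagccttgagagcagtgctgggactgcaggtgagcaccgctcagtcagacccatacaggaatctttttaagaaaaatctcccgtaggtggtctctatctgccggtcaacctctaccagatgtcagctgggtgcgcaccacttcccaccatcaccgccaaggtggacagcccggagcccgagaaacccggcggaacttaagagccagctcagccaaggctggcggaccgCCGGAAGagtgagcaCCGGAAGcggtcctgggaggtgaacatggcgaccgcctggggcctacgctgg
Mrpl23, chr7:142532782-142533081: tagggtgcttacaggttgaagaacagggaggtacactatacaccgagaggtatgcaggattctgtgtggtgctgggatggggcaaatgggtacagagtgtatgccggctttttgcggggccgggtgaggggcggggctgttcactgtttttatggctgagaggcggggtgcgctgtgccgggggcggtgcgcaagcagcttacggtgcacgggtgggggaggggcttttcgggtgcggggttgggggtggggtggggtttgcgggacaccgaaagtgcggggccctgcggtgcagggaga
In Mrps27 the ETS letters stand on the opposite strand upstream of the start and the YY1 letters just after it. Mrpl3 holds 1 ETS match, Mrpl22 an ETS and an NRF1 match, and Mrpl58 a pair of ETS matches, whereas Mrpl23 holds none of the 3 in this window. The 5 do not stand for the called members as a set. Among the 17 called members with a promoter, 6 held the ETS letters, 3 the NRF1 letters and 4 the YY1 letters.

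Over the 68 members with a promoter, 23.5% held the NRF1 letters, 36.8% the ETS letters and 17.6% the YY1 letters. Among all 15563 tested genes with a promoter of the same length the shares were 10.5%, 13.6% and 3.77%. The CCAAT letters stood in 38.2% of members and 41.7% of all, TATAAA in 7.35% and 13.6%, the E-box CACGTG in 7.35% and 9.52%, and the cyclic AMP element TGACGTCA in 2.94% and 2.72%. Of the 22 members that fell 17 had a promoter, and 17.6% of them held the NRF1 letters, 35.3% ETS and 23.5% YY1. In the 51 members with a promoter that were not called the shares were 25.5%, 37.3% and 15.7%. Median GC content was 58.5% in members and 57.7% in all. These counts describe letters in a window and are not binding sites, and no test was made of them.

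With AMAP at 24 h the members lay below control as often as with APAP, but by less, and 0 were called. The median difference was -0.13 against -0.01 over all genes. Below zero were 66 of 77 members, against 53.51% of all genes and 86.89% of the cytosolic ribosomal protein list. All 3 AMAP arrays lay below all 3 controls for 32 members and above them for 0, where 10.7% of all genes lay below and 8.71% above. In limma's fit 0.311% of all genes were called higher and 0.416% lower. At an unadjusted p under 0.05, 11 members (14.3%) were lower and 0 higher, against 11.2% of all genes in both directions and 5.75% lower. APAP and AMAP were compared with the same 3 controls, so these values are not independent of those with APAP.

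The member with the smallest p with AMAP at 24 h was Mrpl19, whose AMAP arrays read 8.76, 8.64 and 8.75 against controls of 8.99, 8.93 and 9.03. The difference was -0.27 ± 0.08 with an adjusted p of 0.1181, though the groups were apart. Mrps18b followed with 11.01, 11.06 and 11.08 against 11.27, 11.22 and 11.44, a difference of -0.26 (adjusted p = 0.1744). The 22 members that fell with APAP had a median difference of -0.17 with AMAP, from -0.27 to -0.03. With Mrpl23, AMAP read 9.98, 9.89 and 9.89, a difference from control of -0.03 ± 0.09.

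The direct comparison of the isomers at 24 h called 3 members (3.896%) lower with APAP and 0 higher. This share is near the 2.78% of all genes that were lower, and 1.87% of all genes were higher. The 3 were Mrps27, Mrpl23 and Mrps28. With centred arrays 1123 of all genes were lower and 302 higher, in place of 555 and 373, and 8 members were lower. Mrps27 read 8.26, 8.03 and 8.16 with AMAP, between the APAP and the control arrays, and the difference between the isomers was -0.45 ± 0.09 (adjusted p = 0.001677). For Mrpl23 it was -0.39 ± 0.09 (adjusted p = 0.00726) and its second probe set differed by -0.41. For Mrps28, with AMAP arrays at 8.86, 8.79 and 8.89, it was -0.39 ± 0.09 (adjusted p = 0.01322). None of the 3 overlapped between the isomers. With only the arrays of the comparison all 3 calls were lost, at adjusted p of 0.08892 for Mrps27, 0.05161 for Mrpl23 and 0.1229 for Mrps28. With the array number as a replicate block, which pairs the arrays in this comparison, 5 members were called, among them these 3.

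For the other members a difference between the isomers was not called at 24 h. Their median, taken over all 77, was -0.07 against 0.02 over all genes, with 61 below zero. At an unadjusted p under 0.05, 17 members (22.1%) were lower and 0 higher, against 18.9% of all genes in both directions and 9.81% lower. Mrpl3 differed by -0.23 with a 95% interval of -0.38 to -0.08 (adjusted p = 0.06459), and Mrpl19 by -0.23 with an interval of -0.39 to -0.06 (adjusted p = 0.1053). The intervals of both exclude 0 while the adjusted p misses the threshold. Mrpl12 differed by -0.11 (95% interval -0.32 to 0.10) and Mrps12 by 0.02 (95% interval -0.23 to 0.27). Number 32 in APAP weighed on the count as well, since 8 members were called without it. The count was 1 without number 30, 1 without number 31, and 6 without AMAP array 31. The share of all genes called in these smaller fits is not given either.

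At 6 h no member was called with either compound. With APAP the median member difference was -0.02, against 0 over all genes, in limma's fit, where 1.05% of all genes were called higher and 1.44% lower. There were 6 members (7.79%) at an unadjusted p under 0.05, 4 of them lower, a smaller share than the 12.3% of all genes. Mrpl49, a large-subunit protein, read 9.88, 10.01 and 9.75 in controls and 10.23, 10.10 and 10.04 with APAP, a difference of 0.24 ± 0.08 (adjusted p = 0.1611). The 22 members that fell at 24 h had a median of -0.08 at 6 h, with 19 below zero.

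With AMAP at 6 h the median was -0.09 against 0.01 over all genes, and 64 of 77 members lay below control. So did 47.91% of all genes and 90.16% of the cytosolic ribosomal protein list, which had a median of -0.04. Of all genes 0.16% were called higher and 0.296% lower. At an unadjusted p under 0.05, 9 members (11.7%) were lower and 0 higher, against 9.47% of all genes in both directions and 5.13% lower. Mrpl36, a short large-subunit protein that binds zinc in bacteria, read 10.14, 10.24 and 10.14 in controls and 9.85, 9.84 and 9.87 with AMAP. The groups of Mrpl36 were well apart and the difference was -0.32 ± 0.09, but the adjusted p was 0.1103. Mrpl17 differed by -0.22 (adjusted p = 0.2878). Between the isomers at 6 h the median was 0.06 against -0.01 over all genes, and 62 of 77 members lay higher with APAP than with AMAP. So did 52 of 61 genes of the cytosolic ribosomal protein list, with a median of 0.06, whereas 53.41% of all genes lay lower. Mrpl17 (0.20, adjusted p = 0.4102) and Mrps36 (0.34, adjusted p = 0.449) had the smallest p. No member was called there, where 0.476% of all genes were called higher and 0.231% lower. Of the members 3 (3.9%) had an unadjusted p under 0.05, against 7.41% of all genes.

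At 2 h no member was called in limma's fit. APAP gave a median of -0.01, where 0.311% of all genes were called higher and 0.371% lower. There was 1 member (1.3%) at an unadjusted p under 0.05, against 9.26% of all genes. That member was Mrpl57, with 8.25, 8.14 and 8.29 in controls and 8.48, 8.45 and 8.28 with APAP, a difference of 0.17 ± 0.07 (adjusted p = 0.4382). Mrpl44 differed by -0.18 (adjusted p = 0.5887). With AMAP the median was -0.01, and 0.0903% of all genes were called in each direction. There were 0 members at an unadjusted p under 0.05, against 6.8% of all genes. Mrpl57 differed by 0.12 (adjusted p = 0.8423) and Mrpl19 by -0.11 (adjusted p = 0.9038). Between the isomers 0.0953% of all genes were called higher and 0.166% lower. Of the members 2 (2.6%) had an unadjusted p under 0.05, against 9.33% of all genes, and the smallest p were those of Mrps27 (-0.19, adjusted p = 0.5082) and Mrpl47 (-0.29, adjusted p = 0.5318).

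The difference of the APAP effect between 24 h and 2 h, tested as an interaction, was below zero for 71 of 77 members, with a median of -0.19. It was also below zero for 51.55% of all genes and for 88.52% of the cytosolic ribosomal protein list, which had a median of -0.08. 1 member, Mrps27, was called lower, at -0.58 ± 0.12 (adjusted p = 0.02992), and 0 higher, where 0.186% of all genes were called lower and 0.171% higher. Its APAP arrays at 2 h had read 8.31, 8.50 and 8.35 against controls of 8.52, 8.46 and 8.49. The call was lost with only the arrays of the comparison (adjusted p = 0.08168), with all probe sets tested (adjusted p = 0.07104) and without number 30, 31 or 32. It was also lost on leaving out any single array of the comparison other than APAP array 30 of either time and control array 32 of 24 h. Mrps28 came next at -0.56 ± 0.13 (adjusted p = 0.05515). At an unadjusted p under 0.05, 23 members (29.9%) were lower and 0 higher, against 9.46% of all genes in both directions and 5.41% lower.

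Control cells gave no called member between times in limma's fit. Between 2 and 6 h the median was 0.01, and 0.441% of all genes were called higher and 0.266% lower. There was 1 member (1.3%) at an unadjusted p under 0.05, against 9.33% of all genes. The smallest p were those of Mrpl57 (0.22, adjusted p = 0.2383) and Mrps9 (-0.14, adjusted p = 0.5501). From 6 to 24 h the median was -0.08, with 63 of 77 below zero, against 51.93% of all genes. Of all genes 0% were called higher and 0.015% lower. There were 7 members (9.09%) at an unadjusted p under 0.05, all lower, near the 7.69% of all genes in both directions, with 5.1% of all genes lower. Mrpl1 (-0.24, adjusted p = 0.3948) and Mrpl36 (-0.26, adjusted p = 0.398) led. From 2 to 24 h the median was -0.09, again with 63 below zero, against 48.38% of all genes. Of all genes 0.512% were called higher and 0.627% lower. There were 7 members (9.09%) at an unadjusted p under 0.05, 6 of them lower, a smaller share than the 14% of all genes; Mrps23 (-0.19, adjusted p = 0.2305) and Mrpl46 (-0.22, adjusted p = 0.2584) led. The medians of the members in control cells thus lay below zero from both earlier times to 24 h.

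Other genes of mitochondrial translation were read from lists alongside, and each count below stands beside the 5.97% of all genes called lower and 3.36% called higher with APAP at 24 h. In that comparison 3 of 17 measured genes of the translation factor list fell (17.65%) and 0 rose, with a median of -0.20. The list also holds genes that are not translation factors proper, such as Coa3, Oxa1l, Lrpprc and Slirp. Tufm, the elongation factor that brings aminoacyl-tRNA to the ribosome, read 10.89, 10.91 and 10.87 in controls and 10.62, 10.41 and 10.67 with APAP, a fall of 0.32 (SE 0.09, adjusted p = 0.02446). Tsfm, its nucleotide exchange factor, fell by 0.33 (SE 0.10, adjusted p = 0.04312). The third was Coa3 (-0.30, adjusted p = 0.005236), which acts in the synthesis and assembly of cytochrome c oxidase.

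Of 27 genes for assembly of the ribosome and modification of its RNA, 3 fell (11.11%) and 0 rose (median -0.09). They were C1qbp, a matrix protein that binds RNA (-0.49 ± 0.10, adjusted p = 0.003026), the GTPase Noa1 (-0.34, adjusted p = 0.02836) and the helicase Dhx30 (-0.24, adjusted p = 0.02984). Dap3, a GTP-binding protein that is a small-subunit constituent under another name, read 10.16, 10.18 and 10.12 in controls and 10.15, 10.16 and 10.04 with APAP, with overlapping groups. Chchd1 and Ptcd3 of this list are also small-subunit constituents. Chchd1 read 9.43, 9.16 and 9.33 in controls and 9.11, 8.69 and 9.04 with APAP, without overlap, but was not called. Ptcd3 read 9.62, 9.78 and 9.63 in controls and 9.68, 9.63 and 9.87 with APAP, with overlapping groups. Of 19 enzymes that charge mitochondrial tRNA 4 fell (21.05%) and 0 rose (median -0.14), led by Yars2, which charges tyrosine tRNA (-0.60 ± 0.10, adjusted p = 0.0002923). Gatc and Qrsl1, subunits of the complex that makes glutaminyl-tRNA, followed (-0.48, adjusted p = 0.003475, and -0.35, adjusted p = 0.04279).

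Of 14 genes for maintenance and transcription of mitochondrial DNA 1 fell (7.143%, near the 5.97% of all genes) and 0 rose (median -0.11). It was Hsd17b10 (-0.26, adjusted p = 0.01849), which is also a subunit of mitochondrial RNase P. Tfam, which packages mitochondrial DNA, read 8.83, 8.84 and 8.82 in controls and 8.69, 8.59 and 9.00 with APAP, overlapping through array 32. Of 20 genes for import and proteolysis 5 fell (25%) and 0 rose (median -0.18), led by the channel Tomm40 (-0.39, adjusted p = 0.0146), the prohibitin Phb2 (-0.37, adjusted p = 0.0007514) and the protease Clpp (-0.33, adjusted p = 0.003371). No transcript of mitochondrial DNA itself was matched among the genes tested, so the products of this ribosome were not analysed here.

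Among 14 regulators of nuclear genes for mitochondria 2 fell (14.29%) and 0 rose with APAP at 24 h (median -0.09). Nrf1, the factor whose letters were searched above, read 8.56, 8.58 and 8.59 in controls, 8.29, 8.27 and 8.18 with APAP and 8.56, 8.78 and 8.66 with AMAP. Its APAP arrays lay below all others of that time, and it fell by 0.33 from control (SE 0.08, adjusted p = 0.01034). Hcfc1, a coregulator in the nucleus, fell by 0.32 (SE 0.10, adjusted p = 0.03936). Gabpa read 9.00, 9.01 and 9.07 in controls and 8.64, 8.66 and 9.11 with APAP, so that array 32 lay above the controls and the others below.

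**Figure D4:**
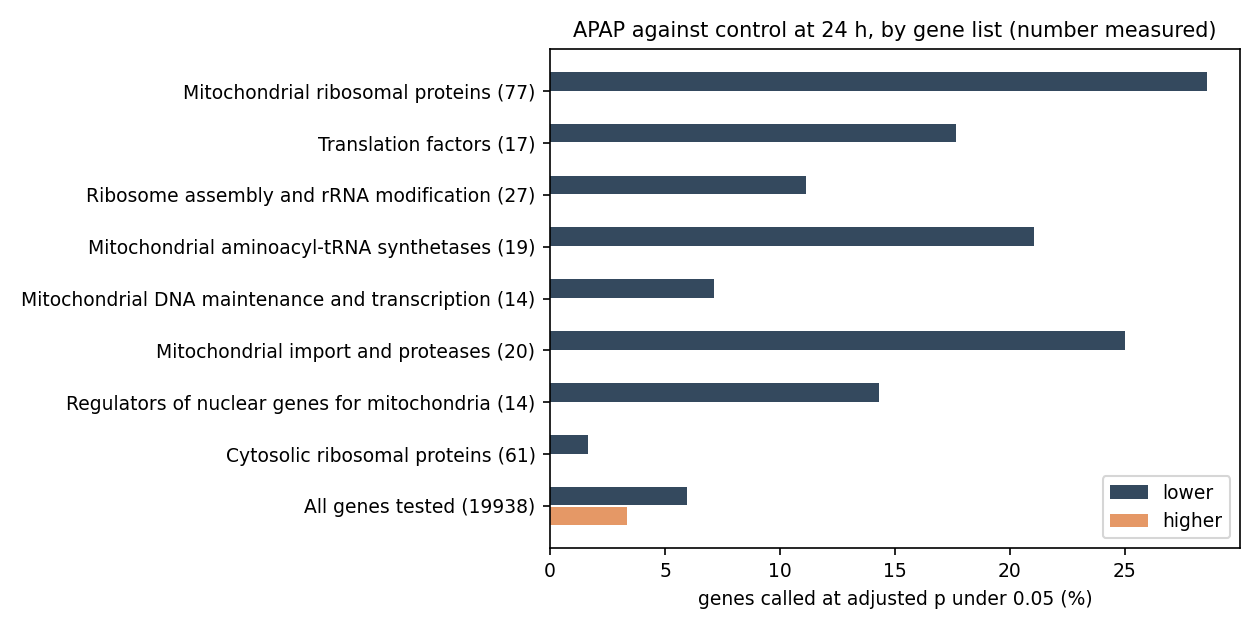
Share of genes called lower or higher with APAP against control at 24 h (adjusted p under 0.05, limma), by gene list, with the number measured in brackets. Of mitochondrial ribosomal proteins 28.57% were lower and 0 higher, against 5.97% and 3.36% of all genes tested and 1.639% lower among cytosolic ribosomal proteins.

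Of the 61 genes listed by symbol as cytosolic ribosomal proteins 1 fell with APAP at 24 h and 0 rose. The 1 was Rpl7l1 (-0.30, adjusted p = 0.01941), a relative of Rpl7 that entered through its symbol. The median of the 61 was -0.07, with 88.52% below zero. With AMAP at 24 h the median was also -0.07 and 0 were called. Against control at 24 h the 4 measured biliary markers had a median difference of -0.51 with APAP and -0.65 with AMAP. Among them Sox9 fell with APAP (-0.35, adjusted p = 0.04407). The other marker lists had medians above zero with APAP: 0.24 for hepatocyte (7 of 9 above zero), 0.13 for macrophage and leukocyte (5 of 6), and 0.05 for both endothelial (4 of 5) and fibroblast and stellate (4 of 7). In these lists 1 gene was called, Vim of the fibroblast list (-0.24, adjusted p = 0.03315), which stands at percentile 99.7 in this line. With AMAP all 9 hepatocyte markers lay above control, with a median of 0.17, and none was called. The part of these markers in the results for the members was not tested.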

How the data were processed

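RMA was run in Affymetrix Expression Console 1.1, per the submitters' processing notes, and the authors deposited a log2 value for each probe set on each array, unpooled. That the base is 2 was taken from how far the values range; the genome build and the level of summarisation are not given in the sources used here. Of 35557 probe sets 21789 carry a single gene symbol, 1621 several and 12147 none. Where a symbol had more than 1 probe set (999 genes) the one with the highest mean over 27 arrays was used, which left 19938 genes; 8 members had more than 1, which may differ in the copies they detect. 1 probe set that names a member together with another gene was left out.

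All 27 arrays entered 1 limma model (version 3.58.1, R 4.3.3) with a mean for each of 9 groups (lmFit and eBayes; 18 residual and 7.3 prior degrees of freedom), and the code was tested on simulated data. All tests were two-sided, with p-values adjusted within a contrast. The number of arrays limits the precision: the median SE of a difference at 24 h was 0.1. The members, lists, tests and alternatives were chosen with earlier results of these data known. By rule the text names up to 6 called members each way, or the 2 of smallest p where fewer than 2 were called, a panel of 20 by role, and up to 3 called genes each way per list; the remaining called members are listed for completeness, and others named were chosen after their values were seen. Shared array numbers were taken to pair arrays where deviations from group means correlated above 0.1 for every number. They did for APAP against control at 2 and 6 h, AMAP against control at 6 h, the isomers at 6 and 24 h, and control at 24 against 6 h, from the data and not from the labels; for APAP against control at 24 h the correlations were 0.08, -0.08 and 0.17.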

Additional observations from a re-analysis of the deposited data

Results flagged for a closer look

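The APAP effect on Mrps27 differed between times by a test of the difference itself: it was -0.58 ± 0.12 (log2 scale, SE) lower at 24 h than at 2 h, with an adjusted p of 0.02992 in limma's fit, and all 3 APAP arrays lay below all 3 controls at 24 h. The call does not hold when most single arrays are left out, as given above.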

How the results depend on the processing

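Of 61 pairs of a named member and a comparison, 26 were called; centring each array on its median, the variance trend with a robust prior, array weights, leaving out dim genes and both forms of the replicate block lost 0 of them, and a minimum difference of 0.5 lost 22. With the arrays of the comparison alone 12 of the 26 were lost. Beyond centring, the counts of called members below stand without the share of all genes called under the same setting. Changes in them thus cannot be set apart from changes over all genes. For APAP against control at 24 h the 22 called members became 14 with only the arrays of the comparison, 34 with array weights and 3 with a minimum difference of 0.5, and leaving out arrays gave 3 to 33. For the isomers at 24 h the 3 became 5 with the replicate block, 0 with only the arrays of the comparison, 8 with centring, 10 with array weights, 5 without dim genes and 0 at a minimum difference of 0.5, and 1 to 8 on leaving out arrays. For the effect of APAP at 24 h minus 2 h the 1 became 2 with the replicate block, the random replicate block, quantile normalization, centring, the robust prior or without dim genes, 6 with array weights, 0 with only its own arrays or with all probe sets tested, and 0 to 2 on leaving out arrays. Array weights also called 1 member for APAP and 2 for AMAP against control at 6 h, all lower. The replicate block changed no other count of calls. The cause of these changes was not tested. The members' median for APAP against control at 24 h became -0.29 without APAP array 32. The uncalled Mrpl4, Mrpl45 and Mrps16 turned sign without number 31 (0.00, 0.03 and 0.00), Mrpl4 without APAP array 31 (0.02), and Mrps18c without number 32 (-0.11) or APAP array 32 (-0.07). On leaving out arrays Mrpl4 ran from -0.10 to 0.02, Mrpl45 from -0.15 to 0.03, Mrps16 from 0.00 to 0.10 and Mrps18c from -0.11 to 0.20.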
